A study of Arabidopsis thaliana with 4 samples.

Results

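The MORC (Microrchidia) family of Arabidopsis thaliana was followed through its 7 genes, MORC1 to MORC7, which were taken by gene identifier out of the 32548 genes in the expression table. Their mRNA was measured by sequencing of 2-week-old seedlings from 2 genotypes with 2 libraries each. In the libraries labelled tcx5/6;cmt3, below also the labelled triple mutant, TCX5, TCX6 and CMT3 are all given as homozygous mutant. In the cmt3 libraries CMT3 alone is. The labelled cmt3 mutation is therefore shared by every library, so the comparison asks what differs with the tcx5 and tcx6 mutations in plants that already carry cmt3. The alleles are not named in the labels. CMT3 is the chromomethylase that maintains CHG methylation, and TCX5 and TCX6 are CXC-domain DNA-binding proteins of the DREAM complex, a repressor of cell cycle genes.

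MORC proteins are ATPases of the GHKL superfamily, the fold shared with DNA gyrase, HSP90, MutL and histidine kinases. They act in chromatin compaction and in the silencing of transposons and methylated genes, largely without removing the DNA methylation itself. In Arabidopsis, MORC1 and the closely related MORC2 each pair with MORC6, and their loss releases silenced loci. MORC4 and MORC7 act redundantly and are known for repressing genes of the pathogen response.

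Of the mutated genes, TCX6 did not follow its label. TCX5 had 251 and 249 normalized units in the tcx5/6;cmt3 libraries, against 730 and 676 in the cmt3 libraries. TCX6 had 919 and 1034 in tcx5/6;cmt3, against 198 and 180 in cmt3, which goes against its label. CMT3 had 1289 and 1343 in tcx5/6;cmt3, against 822 and 662 in cmt3. Values summed over a whole gene cannot separate a truncated transcript from a full one, so they check the labels only in part, and every direction below rests on the label of the libraries labelled tcx5/6;cmt3. Column totals of the normalized values were 39000000 and 39161000 in tcx5/6;cmt3, and 41106000 and 38264000 in cmt3, and the number of reads behind them is unknown. Leaf markers (RBCS1A, LHCB1.2, LHCB2.1 and RCA) and root markers (SHR, SCR, PIN2 and COBL9) were detected in all 4 libraries, as whole seedlings would give. The 4 flower markers (AG, AP3, AP1 and LFY) summed to 42.9 to 64.7 in tcx5/6;cmt3 and to 25.0 to 32.9 in cmt3, and LFY was listed at 0 in both tcx5/6;cmt3 libraries and in cmt3 replicate 2.

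MORC4 rose in the libraries labelled tcx5/6;cmt3, and it was the 1 member that passed the test. Of the 7 genes, 6 had values above 0 and were tested, 1 was called higher and 0 lower. Of all 23666 genes tested, 6.15% were called higher, 2.32% lower and 8.47% in either direction at a limma adjusted p under 0.05 (Benjamini-Hochberg, over all genes tested). An unadjusted limma p under 0.05 was reached by 2 of the 6, MORC2 and MORC4, both higher. Of all 23666 genes tested, 4840 reached it in either direction. Neither the single call nor these 2 among 6 genes sets the family apart from those backgrounds. The median log2 fold change of the 6 tested members was 0.23, beside -0.02 for all genes tested. In 4 of the 6 (MORC2, MORC3, MORC4 and MORC7) both tcx5/6;cmt3 libraries lay above both cmt3 libraries, which 24.4% of tested genes did, and in 0 of the 6 they lay below, which 25.7% of tested genes did.

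**Figure D1:**
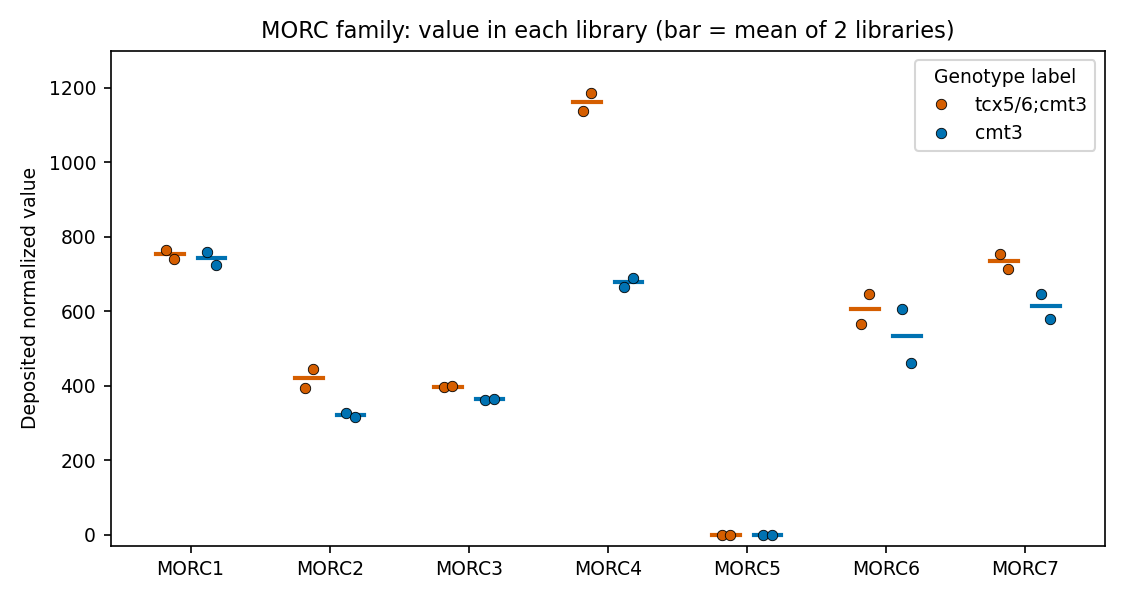
Deposited normalized value (vertical axis, from 0) of each MORC gene in each library, with tcx5/6;cmt3 in orange left of cmt3 in blue; points are libraries and bars are means of 2 libraries. MORC4 stands at 1138 and 1186 in tcx5/6;cmt3, clear of 665 and 690 in cmt3, while MORC1 overlaps between the genotypes and MORC5 is listed at 0 throughout.

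MORC4 (AT5G50780) lies on the plus strand of chromosome 5, from 20650086 to 20655401 in the TAIR10.1 reference annotation, and its longest RefSeq transcript has 20 exons. It had 1138 and 1186 normalized units in the tcx5/6;cmt3 libraries, against 665 and 690 in the cmt3 libraries. The higher cmt3 library was thus well below the lower tcx5/6;cmt3 library. The means were 1162 ± 34.1 in tcx5/6;cmt3 and 678 ± 17.8 in cmt3 (SD, n = 2 each). The log2 fold change was 0.78 ± 0.09 (SE), which is 1.71-fold, with a 95% interval of 0.56 to 0.99 and a limma adjusted p of 0.00397. Among all genes tested, 8.22% had a higher log2 fold change. The size held when any one library was left out, between 0.75 and 0.81. The call did not always hold: the limma adjusted p was 0.0558 with no mean-variance trend. With either tcx5/6;cmt3 library left out, the call held when the filter on low values was set over the libraries that remained. It was lost there when the filter was kept as set over all 4 libraries, which leaves 102 genes at 0 in both cmt3 libraries in the fit. With either cmt3 library left out, the call held under both filters.

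The 250 bases before the annotated start of MORC4 are shown because it is the member that rose and because DREAM complexes bind cell cycle promoters through E2F-type and CHR-type elements. The sequence is the plus strand of chr5:20649836-20650085 (TAIR10.1, RefSeq), written 5′ to 3′ with CHR-type letters in capitals.
MORC4 promoter: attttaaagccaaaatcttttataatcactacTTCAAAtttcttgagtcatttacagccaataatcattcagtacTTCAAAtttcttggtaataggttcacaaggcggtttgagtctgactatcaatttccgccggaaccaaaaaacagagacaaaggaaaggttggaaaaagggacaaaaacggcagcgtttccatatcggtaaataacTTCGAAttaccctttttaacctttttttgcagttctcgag
The CHR-type letters searched were TTTGAA and TTCGAA, on both strands, in the 300 bases from 250 before to 50 after each start. TTTGAA lay on the minus strand at -218 to -213 and at -175 to -170, where the printed strand shows TTCAAA. The other form, TTCGAA, reads the same on either strand and lay at -40 to -35 and once more after the start, at 44 to 49. Such letters are common: 48.4% of 32546 promoters of that length hold at least 1 match, 15.6% at least 2 and 0.731% at least 4, as the MORC4 promoter does. The cut at 4 was taken from the MORC4 promoter itself, so that share is a description and not a test. MORC5 held 1 match and the other 5 members held 0. The E2F-type letters searched were TTTCCCGC, TTTCCCGG, TTTCGCGC, TTTCGCGG, TTTGCCGC, TTTGCCGG, TTTGGCGC and TTTGGCGG, which do not overlap the CHR-type letters. They were in the promoters of 0 of the 7 members and in 3.40% of all promoters. A match describes these letters and is no evidence of binding, and the absence of a match covers these letters and this window alone. Other letter forms and other elements were not searched. The windows of MORC2 and MORC3 lie almost wholly inside the neighbouring MORC gene, with 241 and 239 of the 250 upstream bases.

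MORC7 (AT4G24970, chromosome 4, 12830915 to 12835949, plus strand, 19 exons) is the partner of MORC4 in redundancy and its nearest relative by coding sequence, with 80.1% of aligned bases identical. It had 755 and 713 units in tcx5/6;cmt3, against 647 and 579 in cmt3. The libraries did not overlap, but the gap was close to the spread within cmt3. The log2 fold change was 0.26 ± 0.11 (SE, 95% interval -0.0028 to 0.52) and did not pass (limma adjusted p = 0.25). Without cmt3 replicate 1 it was 0.34 and passed (limma adjusted p = 0.0355), but not with the filter kept over all 4 libraries (0.132). MORC4 and MORC7 share 0 words of 50 bases between their transcripts. Per kb of exon, the ratio of MORC4 to MORC7 was 1.35 and 1.49 in the tcx5/6;cmt3 libraries, against 0.918 and 1.06 in the cmt3 libraries. The groups were apart, and the exact two-sided permutation test gave p = 0.333, the smallest value that 2 libraries in each genotype allow.

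MORC1, MORC2 and MORC3 sit head to tail on the minus strand of chromosome 4 in a block of 3 genes. MORC3 (AT4G36270) runs from 17161024 to 17165241, MORC2 (AT4G36280, also CRH1) from 17165253 to 17169375 and MORC1 (AT4G36290, also CRT1) from 17169385 to 17173361. The annotated genes are 11 and 9 bases apart. Their coding sequences are 84.2% to 88.2% identical over aligned bases, and MORC3 has the shortest, 1461 bases against 1881 in MORC2 and 1908 in MORC1. MORC2 and MORC3 share 84 words of 50 bases, MORC1 and MORC2 share 25 and MORC1 and MORC3 share 15, which is at most 3.97% of a transcript. How the counting divided reads across these copies and their adjoining ends is stated nowhere in the labels or the file, so values within the block are uncertain to that extent.

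Within the block none of the 3 genes passed the test, and MORC2 had the largest estimated difference. MORC1, which encodes the CRT1 protein required for resistance to turnip crinkle virus and for gene silencing, had 766 and 740 units in tcx5/6;cmt3, against 759 and 725 in cmt3. These libraries interleave, and the log2 fold change was 0.02 ± 0.10 (SE, 95% interval -0.21 to 0.25, limma adjusted p = 0.943), with a sign that turned under both rescalings tried (-0.04 with quantile normalization and -0.03 with median centring). MORC2, the redundant relative of MORC1, had 394 and 445 in tcx5/6;cmt3, against 326 and 315 in cmt3. Its libraries did not overlap, and the log2 fold change of 0.39 ± 0.14 (SE, 95% interval 0.05 to 0.72) gave a limma adjusted p of 0.177. MORC3 had 396 and 398 in tcx5/6;cmt3, against 363 and 365 in cmt3. Each MORC3 pair lay within 3 units, and the log2 fold change was 0.13 ± 0.13 (SE, 95% interval -0.18 to 0.43, limma adjusted p = 0.661).

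MORC6 (AT1G19100, also DMS11, chromosome 1, 6594883 to 6601355, plus strand, 20 exons) encodes the shared partner of MORC1 and MORC2. It had 565 and 646 units in tcx5/6;cmt3, against 606 and 461 in cmt3. The genotypes overlapped, because cmt3 replicate 1 lay above the lower tcx5/6;cmt3 library. The log2 fold change was 0.19 ± 0.16 (SE, 95% interval -0.20 to 0.58, limma adjusted p = 0.589). It rested on the cmt3 pair: it was 0.39 and passed without replicate 1 (limma adjusted p = 0.0349), but not with the filter kept over all 4 libraries (0.181), and was -0.01 without replicate 2 (0.984).

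**Figure D2:**
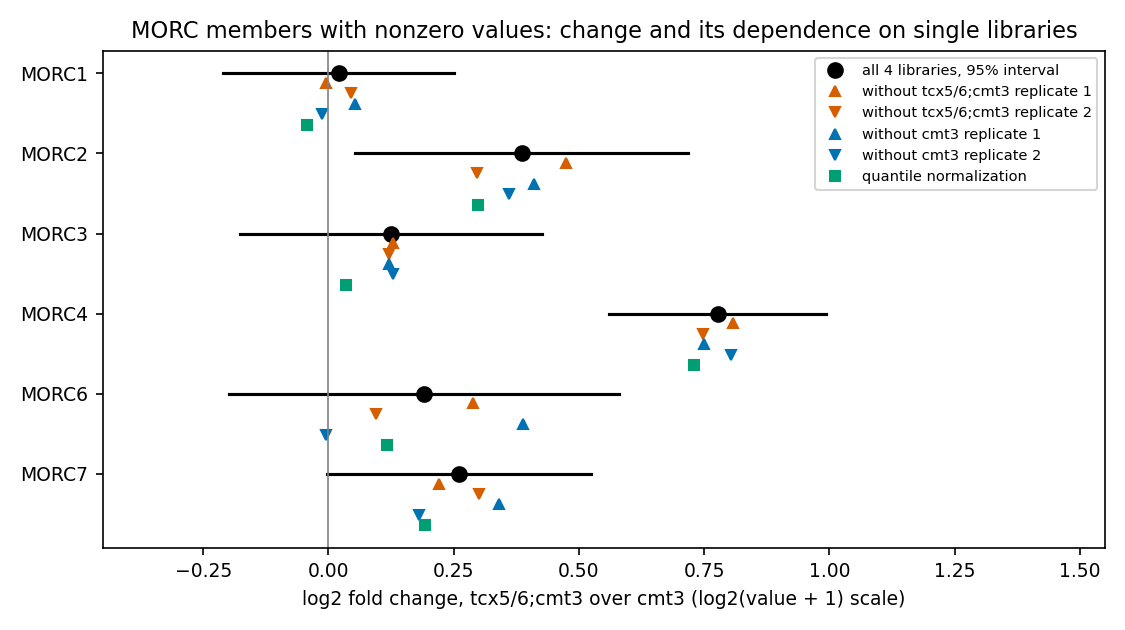
Log2 fold change of tcx5/6;cmt3 over cmt3 (horizontal axis) for the 6 MORC genes with values above 0; black points and lines are the estimate and 95% interval from all 4 libraries, and coloured marks are the estimates with 1 library left out or with quantile normalization. MORC4 keeps 0.73 to 0.81 in every mark, and the MORC1 and MORC6 marks fall on either side of 0.

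MORC5 (AT5G13130, chromosome 5, 4166609 to 4170643, plus strand, 15 exons) was listed at 0 in all 4 libraries, so it has no fold change and was not tested. It was among 7158 genes of the table listed at 0 in all 4. Its end overlaps by 84 bases with AT5G13140 on the opposite strand, a gene of the pollen Ole e 1 allergen and extensin family, which had 2679 and 2916 units in tcx5/6;cmt3, against 3353 and 3076.5 in cmt3. The immune receptor gene RPS2, which overlaps 2 opposite-strand genes, was listed at 0 in all 4 libraries as well, as was FWA, which also has such an overlap. Other listed genes with such an overlap had ample values, such as KNOLLE, with 1564 and 1615 units in tcx5/6;cmt3, against 795 and 757 in cmt3. The part of read counting in values of 0 was not tested.

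Levels were set per kb of exon to compare genes of different length, which takes the deposited values as not already divided by length. By this measure MORC4 led the family in the tcx5/6;cmt3 libraries and MORC1 led it in cmt3. In tcx5/6;cmt3 the mean levels per kb were 366 for MORC4, 318 for MORC1, 259 for MORC7, 229 for MORC6, 187 for MORC2 and 184 for MORC3. Of these neighbours only MORC2 and MORC3 overlapped in their libraries, and they changed places when coding length was used. In cmt3 the mean levels per kb were 314 for MORC1, 216 for MORC7, 214 for MORC4, 202 for MORC6, 168 for MORC3 and 143 for MORC2. There MORC7, MORC4 and MORC6 each overlapped the next and have no firm order. Coding length gave the same order in cmt3.

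The family total per kb of exon was 1521 and 1566 in the tcx5/6;cmt3 libraries, against 1302 and 1212 in the cmt3 libraries. MORC4 made up 23.6% and 23.9% of it in tcx5/6;cmt3, against 16.1% and 17.9% in cmt3. MORC1 made up 21.3% and 20.0% in tcx5/6;cmt3, against 24.7% and 25.3% in cmt3. For the total and both shares the genotypes stood apart, each again with an exact permutation p of 0.333. The ratio of MORC4 to MORC1 per kb was 1.11 and 1.1965 in tcx5/6;cmt3, against 0.653 and 0.71 in cmt3. The ratio of MORC2 to MORC1 was 0.543 and 0.636 in tcx5/6;cmt3, against 0.454 and 0.458 in cmt3. Such ratios are not altered by a common scaling factor within a library, and for both of them the genotypes stood apart. The ratio of MORC3 to MORC1 stood apart as well, at 0.565 and 0.589 in tcx5/6;cmt3, against 0.523 and 0.551 in cmt3. That of MORC6 to MORC1 overlapped. Each ratio that stood apart had an exact permutation p of 0.333. All of these ratios are over MORC1, the tested member with the lowest log2 fold change. As a share of the family total, MORC3 was lower in tcx5/6;cmt3, at 12.03% and 11.75%, against 12.88% and 13.92% in cmt3. The shares of MORC2, MORC6 and MORC7 overlapped between the genotypes.

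**Figure D3:**
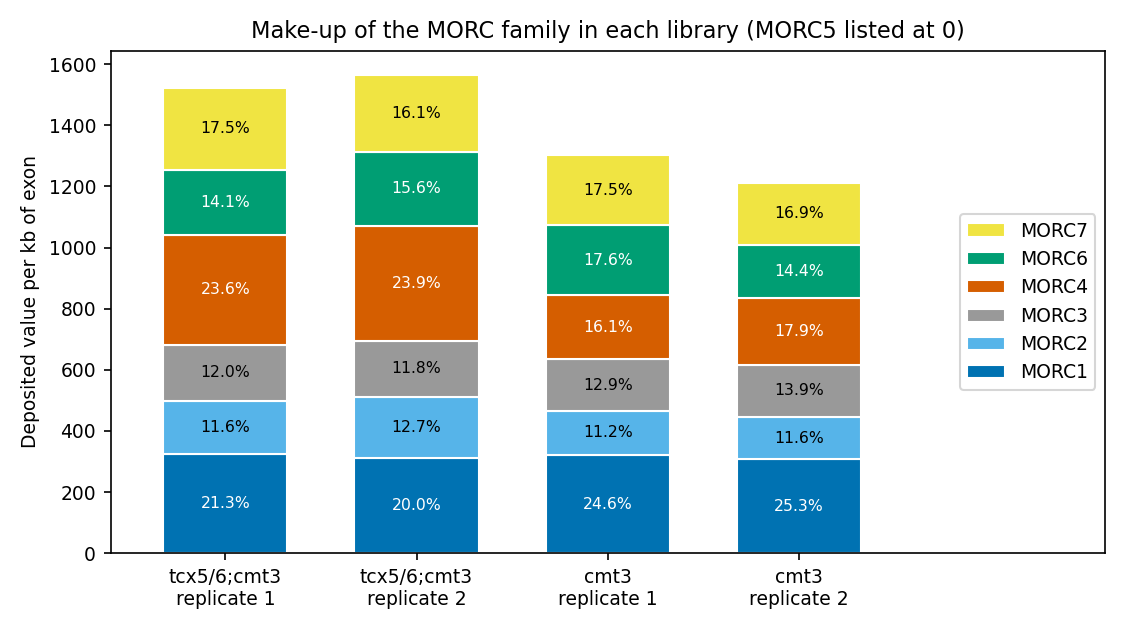
Deposited value per kb of exon (vertical axis, from 0) stacked over the MORC genes in each library, with the share of the family total written in each segment. The orange MORC4 segment is 23.6% and 23.9% in the tcx5/6;cmt3 libraries and 16.1% and 17.9% in the cmt3 libraries.

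The genes whose pattern over the 4 libraries was most like that of MORC4 were AT1G63100, CDC20.1 and MCM4. Likeness was the root-mean-square difference of mean-centred log2(value + 1), over 7575 genes with a mean within 2-fold of MORC4, and was 0.0152, 0.0154 and 0.024 log2 units for them. AT1G63100, annotated as a GRAS family transcription factor, had 987 and 1042 units in tcx5/6;cmt3, against 568 and 604 in cmt3. CDC20.1 (AT4G33270), an activator of the anaphase-promoting complex, had 2074 and 2171 in tcx5/6;cmt3, against 1241 and 1287 in cmt3. MCM4 (AT2G16440), a subunit of the replicative helicase, had 1494 and 1491 in tcx5/6;cmt3, against 865 and 897 in cmt3. With 4 libraries in 2 genotypes, this likeness says little more than that fold change and replicate spread were similar.

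Markers of dividing cells moved in the same direction as MORC4. All 5 of 5 (CYCB1;1, KNOLLE, CDKB2;1, CDKB1;1 and PCNA1) were called higher in tcx5/6;cmt3, beside 6.15% of all genes tested. They had log2 fold changes of 0.89 to 2.03 and a median of 1.03. They summed to 6132 to 6216 units in tcx5/6;cmt3 and to 2657 to 2704 in cmt3, and their part in the MORC4 result was not tested. In whole seedlings more cells of a type and more RNA per cell cannot be told apart. Of the genes beside MORC4, HSD6, on its upstream side, had 8.54 and 35.4 in tcx5/6;cmt3, against 26.2 and 27.5 in cmt3, which overlap. SWEET10, on its downstream side, had 47.2 and 23.8 in tcx5/6;cmt3, against 7.13 and 18.5 in cmt3. The SWEET10 libraries did not overlap, and neither gene passed (limma adjusted p = 0.72 for HSD6 and 0.256 for SWEET10). Of the other genes flanking MORC loci, TPD1 beside MORC7 fell, with 879 and 1003 in tcx5/6;cmt3, against 1382 and 1253 in cmt3 (log2 fold change -0.49 ± 0.10 SE, limma adjusted p = 0.0402). With 8.47% of all genes tested called in either direction, this call does not set the flanking genes apart. The remaining tested neighbours outside the family (PAP25, Pnsl5, AT5G13140, RKF2, AT1G19110 and HVA22D) did not pass, and AT4G09285 was listed at 0 throughout.

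A list of genes that act with MORC proteins holds MORC partners and proteins that recruit RNA-directed DNA methylation, in which small RNAs guide methyltransferases to their targets. Of its 14 genes 0 were called higher and 0 lower, and with 8.47% of all genes tested called in either direction this count does not set the list apart. The list had a median log2 fold change of 0.02 and a range of -0.34 to 0.19. At an unadjusted limma p under 0.05, IDN2 and DRM2 were lower. Of all 23666 genes tested, 4840 reached that level in either direction, so these do not set the list apart. AGO4, the effector that carries small RNAs to their targets, had 2710 and 2552 units in tcx5/6;cmt3, against 2595 and 2074 in cmt3. SWI3D, a SWI/SNF subunit, had 1827 and 1711 in tcx5/6;cmt3, against 2013 and 1825 in cmt3. Both genes overlapped between the genotypes. SUVH2 and SUVH9, which bind methylated DNA and recruit MORC proteins, were within 0.05 log2 units of no change, and DMS3, which resembles the hinge of SMC proteins, within 0.01. SUVH2, DMS3, MLH3, GMI1, SDC, FWA, TCX5, KNOLLE and both CDKB genes overlap a gene on the opposite strand, and reads of such partners cannot be told apart if strand was not used in counting.

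Among other ATPases of the GHKL superfamily, 5 of 15 were called higher and 0 lower, beside 6.15% and 2.32% of all genes tested. The median log2 fold change of this list was 0.19. No difference between this list and the MORC genes was tested. MLH3, a mismatch repair and crossover protein, had 391 and 409 units in the labelled triple mutant, against 82.7 and 106 in cmt3 (log2 fold change 2.08 ± 0.20 SE, limma adjusted p = 0.00219). PMS1, its MutL relative, had 831 and 791 in the labelled triple mutant, against 381 and 383 in cmt3 (log2 fold change 1.09). TOPII, the type II topoisomerase, had 3474 and 3198 in the labelled triple mutant, against 1594 and 1536 in cmt3 (log2 fold change 1.09). The chaperone gene HSP90.1 had a log2 fold change of 0.47 and GMI1, a DNA damage response gene that combines a GHKL ATPase with an SMC hinge, one of 0.87. Of those not called, the chaperone genes HSP90.5 and HSP90.7 had the highest means, and their log2 fold changes were 0.17 and 0.01. MORC4, at 0.78, thus lay among the called GHKL genes, between HSP90.1 and GMI1.

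**Figure D4:**
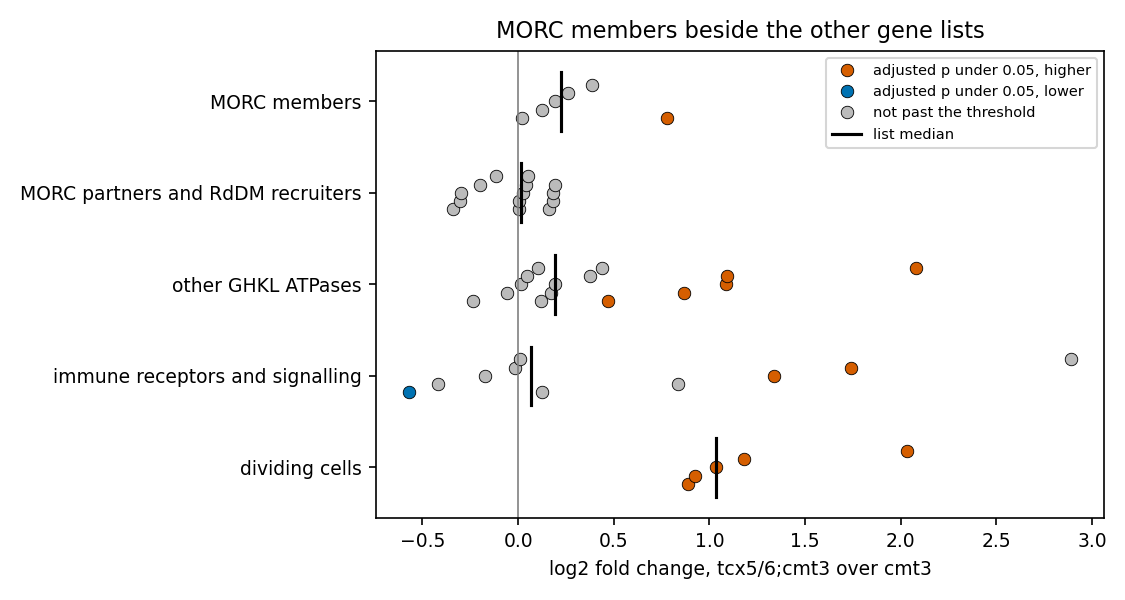
Log2 fold change of tcx5/6;cmt3 over cmt3 (horizontal axis) for the tested genes of 5 lists; points are genes, coloured by the limma call, and vertical lines are list medians. MORC4 at 0.78 is the 1 coloured point among the MORC genes, none of the 14 partner genes is coloured, and all 5 dividing cell markers are.

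Immune genes were read beside MORC4 and MORC7 because of the role of those proteins in repressing pathogen-response genes. Of 11 genes, 10 were tested, 2 were called higher and 1 lower, beside 6.15% and 2.32% of all genes tested. The median log2 fold change was 0.07. ICS1, the enzyme of salicylic acid synthesis, had 1134 and 890 units in the labelled triple mutant, against 432 and 364 in cmt3 (log2 fold change 1.34 ± 0.16 SE, limma adjusted p = 0.00404). PR2, a secreted glucanase used as a marker of the salicylic acid response, had 1296 and 756 in the labelled triple mutant, against 390 and 223 in cmt3 (log2 fold change 1.74 ± 0.33 SE, limma adjusted p = 0.0258). NDR1, needed for signalling by several immune receptors, had 420 and 409 in the labelled triple mutant, against 632 and 598 in cmt3 (log2 fold change -0.57 ± 0.11 SE, limma adjusted p = 0.029). PR1, the usual marker of the response, had 1085 and 2004 in the labelled triple mutant, against 425 and 92.1 in cmt3, a large gap with wide spread that did not pass (limma adjusted p = 0.0525). Of those not called, the immune receptor gene SNC1 and the signalling gene EDS1 had the highest means, with log2 fold changes of -0.17 and -0.02. In limma without the trend 0 of these genes were called, with 5 at an unadjusted p under 0.05. In that fit 4197 of all 23666 genes tested were at that level. Of 3 loci listed as targets of DNA methylation, SDC was at 0 in each labelled triple mutant library, against 9.52 and 5.43 units in cmt3 (limma adjusted p = 0.0732). MORC1 and MORC6 help to silence SDC. FWA was listed at 0 in all 4 libraries. QQS was not silent in cmt3, at 829 and 714 units, against 31.0 and 48.3 in the labelled triple mutant (log2 fold change -4.28 ± 0.26 SE, limma adjusted p = 0.000551).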

How the data were processed

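Seedlings were grown at 22 °C with 16 h of light and 8 h of dark and total RNA was taken from 1 g of tissue with TRIzol, per the labels' protocols. Reads were aligned with HISAT2 to TAIR10 and handled with edgeR, per the submitters' processing notes. No source here states the counter, strand setting, annotation, filters or scaling. The authors deposited 1 normalized signal value per gene in each library, fractional and with similar column totals. Division by length was not tested, and the levels per kb take the values as not divided by it. Low values did not come out as whole reads, so depth and detection limits are unknown and no count test was used. Values under 1e-10 were set to 0. Another 4 columns of the table belong to no sample described here and were not used.

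The samples were grouped by their titles. A gene was tested where at least 2 libraries had a value of at least 1, which left 23666. Limma 3.58.1 (R 4.3.3) was run across all genes on log2(value + 1) with a mean-variance trend, Benjamini-Hochberg adjustment and a threshold of 0.05. Fold changes on this scale understate low genes. Whether replicates came from separate plants is not labelled, so the spread behind each p-value may be technical. The fit was tested on simulated data. Residual spread was shuffled across genes there, so the simulation could not check the mean-variance trend. All 32548 identifiers matched TAIR10.1 locus tags, the source of coordinates, lengths and sequence. Levels per kb used all annotated exons of a gene. The members and lists were chosen with earlier results of these data known. Genes named were the members, the mutated genes, flanking genes, the 3 nearest in pattern, and per list those called (at most 4, by p) with the 2 highest means among the rest. PR1, RPS2, GMI1, IDN2, DRM2, SUVH2, SUVH9 and DMS3 were named after their values were seen. Alternatives were quantile normalization, median centring, no filter or one at 5, a pseudocount of 0.1, no trend, a replicate block, each library left out, thresholds of 0.01 and 2-fold, coding length and one promoter strand. The fits without a library but with the filter over 4 libraries were added after seeing the data.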

Additional observations from a re-analysis of the deposited data

How the results depend on the processing

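The MORC4 log2 fold change was positive under every alternative run. It missed the adjusted p threshold of 0.05 in 3 of them, and its 1.71-fold change also falls short of the 2-fold threshold. It was 0.78 without the trend (limma adjusted p = 0.0558) and, with the filter set over 4 libraries, 0.81 and 0.75 without tcx5/6;cmt3 replicate 1 and 2, the extremes also of the other fits with a library left out. MORC2 and MORC3 kept their direction and missed the threshold throughout, while MORC7 spanned 0.18 to 0.34 and MORC6 -0.0051 to 0.39 with a library left out. MORC1 turned to -0.0433 with quantile normalization and -0.0297 with median centring, and spanned -0.0124 (without cmt3 replicate 2) to 0.0534 with a library left out, with -0.0046 without tcx5/6;cmt3 replicate 1. The number of MORC genes called higher was 0 without the trend (2 at an unadjusted limma p under 0.05) and 0 at 2-fold or more, against 1, and 0 to 3 with a library left out. Without the trend, 4197 of all 23666 genes tested had an unadjusted limma p under 0.05. Over all genes, 586 were higher and 135 lower without the trend, against 1456 and 549. With a library left out these counts were 720 to 3068 and 212 to 2568. With the filter over 4 libraries the lower count was 341 without cmt3 replicate 1, and both counts were 0 without either tcx5/6;cmt3 library, where 2407 and 2490 genes had an unadjusted limma p under 0.05. In such fits the lone library of a genotype is assumed to vary like the other pair. With a library left out, MORC partners called higher were 0 to 2 and lower 0 to 3, other GHKL ATPases 0 to 8 and 0 to 1, and immune genes 0 to 4 and 0 to 3. Without the trend the GHKL count was 3 higher and the immune counts 0 and 0. No shared effect of equal replicate numbers was seen: the correlation of replicate differences between the genotypes was 0.0006. It cannot show whether the replicates were grown or prepared in pairs. The replicate block gave 1314 genes higher and 473 lower, 1 MORC gene higher (MORC4, limma adjusted p = 0.00787), and 4 immune genes higher and 0 lower. On the plus strand alone 1 MORC promoter held a CHR-type match, against 2. Under coding length MORC2 ranked 6 and MORC3 5 in tcx5/6;cmt3. The causes of these changes were not tested. Depth is unknown, so it could not be set against these results.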
